A study of Mus musculus with 45 samples.

Results

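The genes described here are 10 targets and feedback regulators of the canonical Wnt pathway: Axin2, Nkd1, Notum, Rnf43, Znrf3, Lgr5, Lef1, Tcf7, Sp5 and Dkk2. They were taken by symbol from 2 expression tables of 55335 genes each, and every symbol was found in both tables. RNA sequencing had been done on cultured mouse tumour cells of 2 lines, CT26, labelled a colon carcinoma line, and Hepa1-6, a liver tumour line. In the drug experiment, wild-type CT26 and Hepa1-6 cells received a compound named only stk or the solvent DMSO for 48 hours. In the knockdown experiment, RNA was taken 24 hours after seeding from CT26 cells carrying sh1, sh2 or sh3, which are hairpins that target Soat1, or a control hairpin named shLucif, and from Hepa1-6 cells with a scramble hairpin or with shLucif. Soat1 encodes the cholesterol-esterifying enzyme named in the title of the study. Each of these 10 groups had 3 libraries with matching values. A further 3 of the 6 samples labelled stk in each line were not analysed here. Nothing in the labels says that the libraries of a group came from separate cultures, so p-values measure the spread between these libraries, which may be technical. The Hepa1-6 lines with Soat1 hairpins were not analysed here. The labels give each experiment a batch date of its own, so batch and experiment cannot be told apart, and every test stayed inside 1 experiment.

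In the canonical pathway a Wnt ligand binds a Frizzled receptor and an LRP co-receptor, beta-catenin escapes destruction, and in the nucleus it joins TCF/LEF factors on target genes. Many of these targets then act back on the pathway. AXIN2 is a scaffold of the complex that destroys beta-catenin, NKD1 binds Dishevelled, NOTUM is a secreted enzyme that removes the lipid from Wnt ligands, RNF43 and ZNRF3 are ubiquitin ligases that remove Frizzled from the surface, LGR5 is a receptor for R-spondins, LEF1 and TCF7 are DNA-binding partners of beta-catenin, SP5 is a zinc-finger repressor and DKK2 is a secreted ligand of LRP5 and LRP6. In the intestine the pathway maintains stem cells of the crypt, and in the liver it sets the gene programme of hepatocytes around the central vein.

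The unit is FPKM, a count of sequenced fragments scaled by transcript length and library size, so levels can be compared between genes per unit of length. FPKM summed to between 314827 and 335067 per library in the drug table and to between 320249 and 335813 in the knockdown table, and between 11159 and 11555 genes reached 1 FPKM in the knockdown libraries (11228 to 11407 in the drug libraries). Read totals are unknown, which leaves the counting error of low values without a number. Differences are on the log2(FPKM + 1) scale, which shrinks those of low genes, with the standard error (SE) and the adjusted p of limma, a linear model fitted across all genes. A gene was tested where 3 or more libraries of a model reached 1 FPKM, and was called at an adjusted p under 0.05. In such bulk samples fewer cells that use a gene and less RNA per cell cannot be told apart.

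The labels were set against marker genes and against the targeted gene. Soat1 had means of 3.27, 3.47 and 2.59 FPKM with sh1, sh2 and sh3 in CT26, against 19.9 FPKM with shLucif. CT26 cells with DMSO had the epithelial genes Epcam and Cdh1 listed at 0 in all 3 libraries, 1 of 12 intestinal epithelial markers at a mean of 1 FPKM or more (Krt20, at 26.5 FPKM), and the mesenchymal Vim at 499.6 FPKM. Hepa1-6 cells with DMSO held 8 of 13 hepatocyte markers at 1 FPKM or more. They also held 6 of the 12 intestinal epithelial markers at that level, with a sum of 1552 to 1597 FPKM, against 26.9 to 31 FPKM in CT26 with DMSO, so their sum was higher in Hepa1-6 than in the colon carcinoma line. That list includes Epcam, Cdh1 and the keratin genes Krt8, Krt18 and Krt19, which are not confined to the intestine. Its sum therefore does not single out intestinal cells. The Hepa1-6 shLucif libraries stood apart from the other Hepa1-6 libraries. Their hepatocyte markers summed to between 91.5 and 94.4 FPKM, against 435.7 to 470.2 FPKM with scramble. Intestinal epithelial markers summed to 2060 to 2122 FPKM with scramble and 288.8 to 302.9 FPKM with shLucif, and mesenchymal markers to 295 to 329 FPKM with scramble and 199.6 to 215.9 FPKM with shLucif. Alb was at 135 FPKM with scramble and 1.49 FPKM with shLucif, Col1a2, a collagen gene that went against the sum of its mesenchymal list, at 0.0353 and 15.4 FPKM, and Soat1 at 0.146 and 13.05 FPKM. Across genes within these libraries, the Pearson correlation of Hepa1-6 shLucif with Hepa1-6 scramble was 0.887 to 0.891 and that with CT26 shLucif 0.884 to 0.889, whereas Hepa1-6 scramble and CT26 shLucif had 0.734 to 0.739. They are called the libraries labelled Hepa1-6 shLucif, and each result that rests on them is given with that limit.

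All 10 genes have 1 place each in the GRCm38 genome (GENCODE annotation), each as a protein-coding gene. Axin2 (ENSMUSG00000000142) lies on chromosome 11 from 108920349 to 108950783, Nkd1 (ENSMUSG00000031661) on chromosome 8 from 88521354 to 88594884, Sp5 (ENSMUSG00000075304) on chromosome 2 from 70474923 to 70477729 and Dkk2 (ENSMUSG00000028031) on chromosome 3 from 132085292 to 132180304, all on the plus strand. Lef1 (ENSMUSG00000027985) lies on the plus strand of chromosome 3 from 131110471 to 131224356, and Rnf43 (ENSMUSG00000034177) on that of chromosome 11 from 87662722 to 87735539. On the minus strand lie Notum (ENSMUSG00000042988, chromosome 11, 120653788 to 120661175), Znrf3 (ENSMUSG00000041961, chromosome 11, 5276324 to 5444847), Tcf7 (ENSMUSG00000000782, chromosome 11, 52252371 to 52283014) and Lgr5 (ENSMUSG00000020140, chromosome 10, 115450311 to 115587780).

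Promoter windows from RefSeq (GRCm38.p6) matched 7 of the 10 genes, with 12 windows in all, and Notum, Znrf3 and Lgr5 had none. The 250 bases before each RefSeq start were searched on both strands for the TCF/LEF core CTTTGAT and for CTTTGTT, which share their first 5 letters and cannot overlap each other at the same position. Only 1 of the 12 windows held either, that of Sp5, and it held both. CTTTGAT lies on the printed strand at -104 to -98 from the start, and CTTTGTT on the other strand at -222 to -216, where it reads AACAAAG below. Of 32851 promoter windows of this length, 3.21% held CTTTGAT, 5.03% held CTTTGTT and 0.174% held both. The window of Sp5 is printed as the one with matches, in capitals, that of Axin2 as the inhibitor gene with the highest level in Hepa1-6, that of Nkd1 as the gene called with stk, and that of Dkk2 as a gene called with every Soat1 hairpin. The only Nkd1 window, from 88527383, lies inside the gene, downstream of its annotated start at 88521354. The Rnf43 windows, from 87662837 and 87699647, also lie inside their gene, downstream of its annotated start at 87662722. The bases before the annotated starts of Nkd1 and Rnf43 were therefore not searched. The Lef1 windows from 131112541 and 131156044 and the Tcf7 window from 52282596 lie inside their genes as well. The Lef1 windows from 131110047 and 131110073 overlap each other. The absence of these letters from a window says nothing of the factors that bind there.
Sp5 (chr2:70474673-70474922, plus strand): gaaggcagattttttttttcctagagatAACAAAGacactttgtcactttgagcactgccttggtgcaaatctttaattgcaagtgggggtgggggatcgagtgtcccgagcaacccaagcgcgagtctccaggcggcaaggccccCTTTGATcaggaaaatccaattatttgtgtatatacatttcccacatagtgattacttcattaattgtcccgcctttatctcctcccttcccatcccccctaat
Axin2 (chr11:108920099-108920348, plus strand): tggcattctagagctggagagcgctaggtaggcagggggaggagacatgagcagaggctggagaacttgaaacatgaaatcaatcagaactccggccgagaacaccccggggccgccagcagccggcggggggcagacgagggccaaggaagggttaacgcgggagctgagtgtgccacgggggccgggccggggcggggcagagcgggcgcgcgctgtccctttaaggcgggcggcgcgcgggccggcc
Nkd1 (chr8:88527383-88527632, plus strand): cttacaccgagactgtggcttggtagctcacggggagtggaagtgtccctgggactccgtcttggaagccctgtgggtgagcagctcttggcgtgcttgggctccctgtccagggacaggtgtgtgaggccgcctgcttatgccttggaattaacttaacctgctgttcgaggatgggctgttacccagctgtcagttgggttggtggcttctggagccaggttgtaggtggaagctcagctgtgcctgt
Dkk2 (chr3:132085042-132085291, plus strand): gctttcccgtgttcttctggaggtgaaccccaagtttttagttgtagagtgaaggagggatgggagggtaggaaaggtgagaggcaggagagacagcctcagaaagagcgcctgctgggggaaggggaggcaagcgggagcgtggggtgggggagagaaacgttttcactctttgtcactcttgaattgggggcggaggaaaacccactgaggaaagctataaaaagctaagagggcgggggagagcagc

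The lines were compared first, because most of the 10 genes reached 1 FPKM in 1 of them only. With DMSO, 8 genes were lower in CT26 than in Hepa1-6 and 2 were higher, and for all 10 the libraries of the lines did not overlap. Of 12822 tested genes, 76.8% differed between the lines (38.4% lower and 38.5% higher in CT26), and 79.7% had libraries that did not overlap. All of the 10 genes but Znrf3 reached 1 FPKM in 1 line only and passed the minimum for testing through that line, so the counts describe them and support nothing further.

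The DNA-binding factors were divided between the lines. Tcf7 had 0, 0.0191 and 0 FPKM in CT26 libraries with DMSO and 63.4, 62.7 and 61.0 FPKM in Hepa1-6 libraries with DMSO (log2 difference -5.98, SE 0.0375, limma adjusted p = 3.27e-16). Its relative Lef1 was the other way round, with 1.30, 1.66 and 1.41 FPKM in CT26 and 0.612, 0.387 and 0.476 FPKM in Hepa1-6 (0.72, SE 0.0781, limma adjusted p = 6.45e-06). Sp5, the repressor, was listed at 0 in all CT26 libraries and stood at 67.5, 68.0 and 63.6 FPKM in Hepa1-6 (limma adjusted p = 3.27e-16), so no fold is given. Tcf7l2, a TCF factor outside the 10 genes, had 1.79 ± 0.188 FPKM in CT26 and 2.60 ± 0.186 FPKM in Hepa1-6 (SD, n = 3 each; -0.37, limma adjusted p = 0.000199), and Tcf7l1 had at most 0.0434 FPKM in any library.

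The inhibitors that act inside the cell were almost wholly on the Hepa1-6 side. Axin2 had 0.00935, 0.0105 and 0.0257 FPKM in CT26 and 51.2, 53.7 and 50.8 FPKM in Hepa1-6 (-5.70, SE 0.0397, limma adjusted p = 5.78e-16). For Nkd1 the CT26 libraries had 0, 0 and 0.00655 FPKM and the Hepa1-6 libraries 23.0, 22.3 and 22.2 FPKM (-4.55, SE 0.0378, limma adjusted p = 2.45e-15). Axin1, the constitutive relative of Axin2, was by contrast present in both lines, at 23.1 ± 1.28 FPKM in CT26 and 20.7 ± 0.894 FPKM in Hepa1-6 (SD, n = 3 each; 0.15, limma adjusted p = 0.0393).

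Of the genes that act at or outside the membrane, Znrf3 was the only inhibitor with a level over 1 FPKM in both lines. It had 1.61, 1.90 and 2.11 FPKM in CT26 and 7.35, 8.86 and 8.27 FPKM in Hepa1-6 (-1.67, SE 0.089, limma adjusted p = 1.19e-08), so that the CT26 mean was 23.0% of the Hepa1-6 mean. Its relative Rnf43 had 0.0393, 0.0176 and 0.0359 FPKM in CT26 and 4.78, 7.52 and 4.66 FPKM in Hepa1-6 (-2.66, SE 0.141, limma adjusted p = 1.13e-08). Notum and Lgr5 were listed at 0 in every CT26 library with DMSO. In Hepa1-6, Notum had 3.495, 3.45 and 3.41 FPKM (limma adjusted p = 5.48e-12) and Lgr5 5.24, 5.67 and 5.20 FPKM (limma adjusted p = 7.82e-11). Dkk2 went the other way, with 4.54, 5.48 and 4.92 FPKM in CT26 and 0.0712, 0.0958 and 0.0557 FPKM in Hepa1-6 (2.47, SE 0.104, limma adjusted p = 1.56e-09).

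Within Hepa1-6 with DMSO, Sp5, Tcf7 and Axin2 held the highest levels of the 10 genes, followed by Nkd1. These 4 did not overlap one another. Below them Znrf3 (7.35 to 8.86 FPKM) overlapped Rnf43 (4.66 to 7.52 FPKM), and Rnf43 overlapped Lgr5 (5.20 to 5.67 FPKM), while Notum lay under all 3. Lef1 and Dkk2 were the lowest. In CT26 with DMSO the order was Dkk2, then Znrf3 and Lef1, whose ranges overlapped (1.61 to 2.11 and 1.30 to 1.66 FPKM), and no other of the 10 genes reached 0.1 FPKM.

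**Figure D1:**
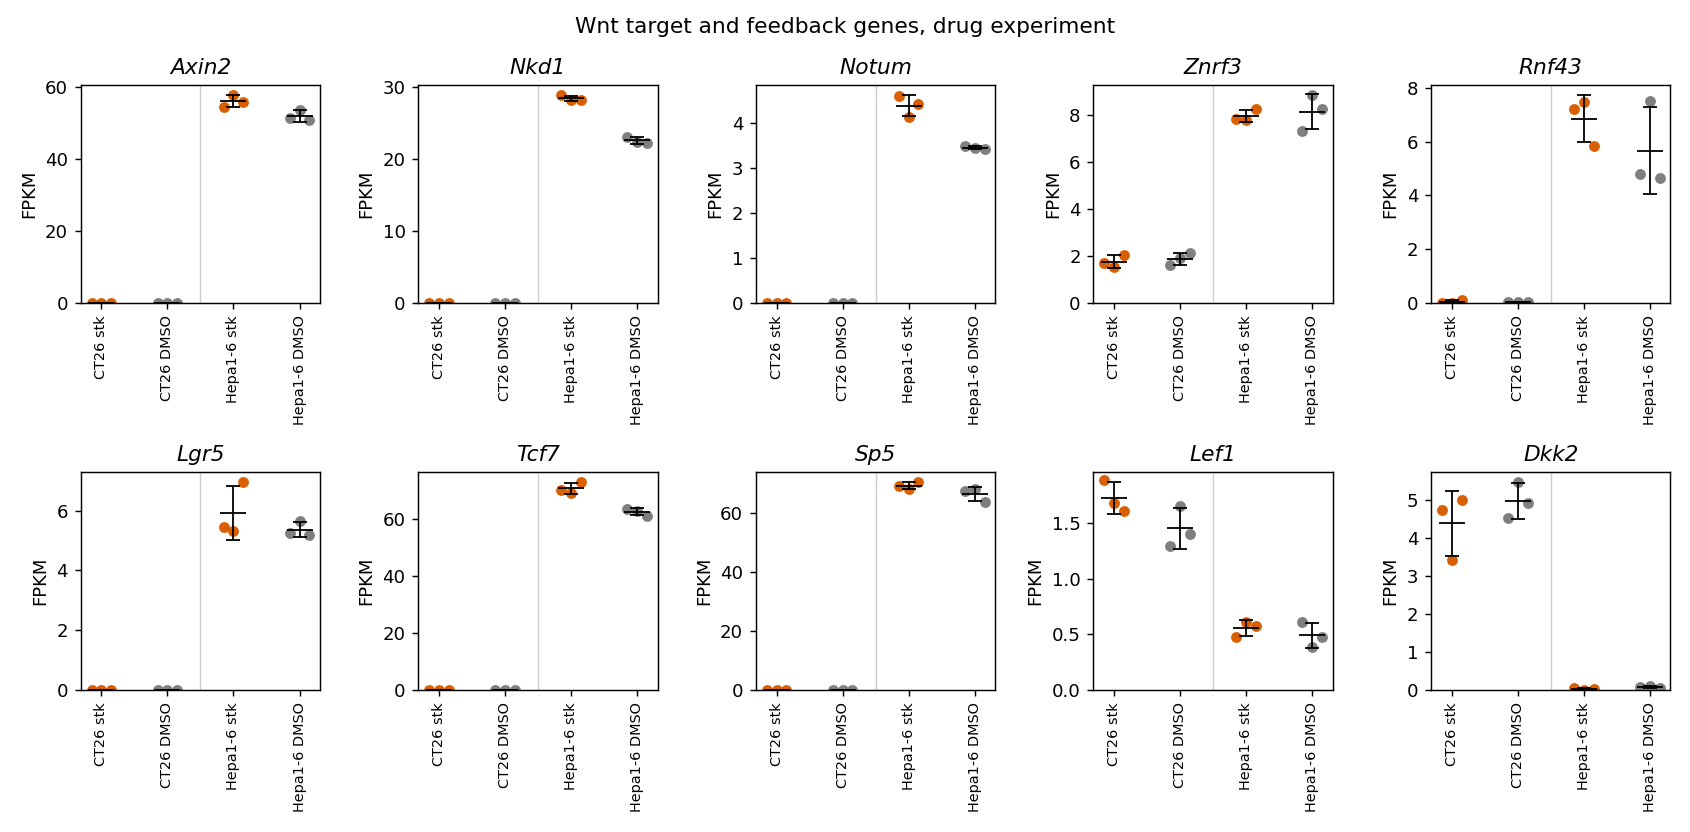
FPKM of the 10 genes in the drug experiment (vertical axis, a separate linear scale per gene), with 1 point per library and the mean ± SD in black, for CT26 and Hepa1-6 cells with stk and with DMSO. Axin2, Nkd1, Notum, Rnf43, Lgr5, Tcf7 and Sp5 lie at or near 0 in CT26, Dkk2 lies near 0 in Hepa1-6, and Nkd1 is at 28.1 to 28.8 FPKM in Hepa1-6 with stk and 22.2 to 23.0 FPKM with DMSO.

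Of the other genes of the pathway, 124 in 8 lists, 20 were higher and 41 lower in CT26 with DMSO, of 71 tested. Over all tested genes, 76.8% were called (38.5% higher and 38.4% lower in CT26). Wnt6, Wnt5a, Fzd10, Fzd2, Wls, Porcn, Lect2, Tbx3 and Cyp27a1, given below, reached 1 FPKM in 1 line only and were tested through that line. The mean of Sox9 in CT26 with DMSO was also under 1 FPKM. Among ligands, Wnt6 was lower by far in CT26 (0.0200 ± 0.00849 FPKM, against 62.4 ± 1.68 FPKM in Hepa1-6, SD, n = 3 each; -5.96), and Wnt5a was listed at 0 in CT26 and had 3.498 ± 0.807 FPKM in Hepa1-6. Wnt10a, at 11.9 ± 0.745 FPKM in CT26 and 11.1 ± 0.654 FPKM in Hepa1-6, did not pass the test. Of 14 tested receptors, 4 were higher and 9 lower in CT26. Fzd10 was listed at 0 in CT26 and had 22.3 ± 0.71 FPKM in Hepa1-6, and Fzd2 had 9.22 ± 0.527 FPKM in CT26 and was listed at 0 in Hepa1-6. The carrier of Wnt ligands Wls (2.96) and the acyltransferase Porcn (1.48) were higher in CT26. Of 6 tested pericentral liver genes, 5 were lower in CT26, with Lect2 at -5.54, Tbx3 at -3.36 and Cyp27a1 at -2.45. Among crypt and general targets 3 were higher and 9 lower of 12 tested, with the Notch ligand gene Jag1 at -5.67, the transcription factor genes Sox9 at -3.00 and Sox4 at -2.45.

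In CT26 none of the 10 genes was called with stk, a compound whose target the labels do not give. Only 3 of them were tested. Dkk2 had 4.73, 3.41 and 5.01 FPKM with stk and 4.54, 5.48 and 4.92 FPKM with DMSO (-0.16, SE 0.129, 95% interval -0.47 to 0.15, limma adjusted p = 0.634). Lef1 had 1.89, 1.68 and 1.61 FPKM with stk and 1.30, 1.66 and 1.41 FPKM with DMSO (0.15, SE 0.0849, interval -0.05 to 0.36, limma adjusted p = 0.474). For Znrf3 the libraries with stk had 1.70, 1.53 and 2.06 FPKM and those with DMSO 1.61, 1.90 and 2.11 FPKM (-0.06, SE 0.103, interval -0.31 to 0.19, limma adjusted p = 0.85). In each of the 3 genes the libraries of the groups overlapped, and they did not in 21.4% of all tested genes. The background was 0.748% of 11358 tested genes called (0.132% higher and 0.616% lower), and 0 of the 3 had an unadjusted p under 0.05, against 1656 of all genes. The remaining 7 genes were not tested, and their highest value in any of these 6 libraries was 0.1 FPKM (Rnf43 with stk).

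In Hepa1-6, Nkd1 rose with stk. It had 28.8, 28.2 and 28.1 FPKM with stk and 23.0, 22.3 and 22.2 FPKM with DMSO, with no overlap, and its mean with stk was 1.26 times that with DMSO (0.32, SE 0.0355, limma adjusted p = 0.0292). This call was lost in all 6 fits that left out 1 library (adjusted p 0.0532 to 0.113), although the difference stayed between 0.31 and 0.33. It was also lost when genes of any level were tested (limma adjusted p = 0.0772). Of the 8 genes tested in this comparison 1 was called, against a background of 1.53% of 11426 tested genes (0.683% higher and 0.849% lower).

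The other tested genes had mostly higher means with stk and did not pass. Tcf7 had 70.1, 69.0 and 72.8 FPKM with stk and 63.4, 62.7 and 61.0 FPKM with DMSO (0.18, SE 0.0354, limma adjusted p = 0.0581). Notum had 4.60, 4.14 and 4.42 FPKM with stk and 3.495, 3.45 and 3.41 FPKM with DMSO (0.27, SE 0.0574, limma adjusted p = 0.0626). Both passed in a model over all 12 libraries of the drug experiment (adjusted p = 0.0225 for Tcf7 and 0.0121 for Notum), and Tcf7 also after quantile normalization (0.0464). Axin2 had 54.4, 57.6 and 55.9 FPKM with stk and 51.2, 53.7 and 50.8 FPKM with DMSO (0.11, SE 0.0389, limma adjusted p = 0.164). Sp5 had 69.0, 68.1 and 70.4 FPKM with stk and 67.5, 68.0 and 63.6 FPKM with DMSO (0.06, SE 0.038, limma adjusted p = 0.39). In Nkd1 and these 4 genes every library with stk lay above every library with DMSO, which makes 5 of 8 tested genes. The same held for 16.2% of all tested genes, and groups did not overlap in either direction for 30.8%.

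The membrane genes did not separate by treatment in Hepa1-6. Rnf43 had 7.21, 7.48 and 5.84 FPKM with stk and 4.78, 7.52 and 4.66 FPKM with DMSO (0.26, SE 0.171, limma adjusted p = 0.408). Lgr5 had 5.46, 5.33 and 6.97 FPKM with stk and 5.24, 5.67 and 5.20 FPKM with DMSO (0.11, SE 0.0971, limma adjusted p = 0.523). For Znrf3 the values were 7.85, 7.80 and 8.27 FPKM with stk and 7.35, 8.86 and 8.27 FPKM with DMSO (-0.03, SE 0.0707, limma adjusted p = 0.858). The groups overlapped in all 3 genes. Over the 8 tested genes, 7 had a higher mean with stk, and the median difference was 0.14, against 0.003 over all tested genes. Lef1 (0.476, 0.614 and 0.576 FPKM with stk, 0.612, 0.387 and 0.476 FPKM with DMSO) and Dkk2 (0.0407, 0 and 0.0154 FPKM with stk, 0.0712, 0.0958 and 0.0557 FPKM with DMSO) were too low to be tested. The Dkk2 libraries with stk lay below those with DMSO, all of them under 0.1 FPKM. Mesenchymal markers summed to 218.5 to 224.2 FPKM with stk and 234.1 to 235 FPKM with DMSO in Hepa1-6, and hepatocyte markers to 448.7 to 453.9 and 409.5 to 457.1 FPKM with stk and with DMSO, and their part in these values was not tested.

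Whether the response to stk differed between the lines was asked with an interaction term over the 12 drug libraries, in which all 10 genes passed the minimum for testing. Only Znrf3 reached it in each line, and its responses differed by -0.03 for CT26 minus Hepa1-6 (SE 0.126, 95% interval -0.31 to 0.25, limma adjusted p = 0.941). Nkd1 crossed the threshold (-0.32, SE 0.0535, limma adjusted p = 0.0416), against a background of 0.304% of 12822 genes (0.109% higher and 0.195% lower). Since Nkd1 was listed at 0 in all 3 CT26 libraries with stk and in 2 of 3 with DMSO, this value repeats its difference in Hepa1-6 with the sign turned and does not show that the lines respond differently. The call was lost in all 12 fits that left out 1 library (adjusted p 0.0707 to 0.125) and with a pseudocount of 0.1 (0.172). The other genes had differences between -0.27 (Notum, limma adjusted p = 0.13) and 0.09 (Lef1, 0.756), none past the threshold.

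**Figure D2:**
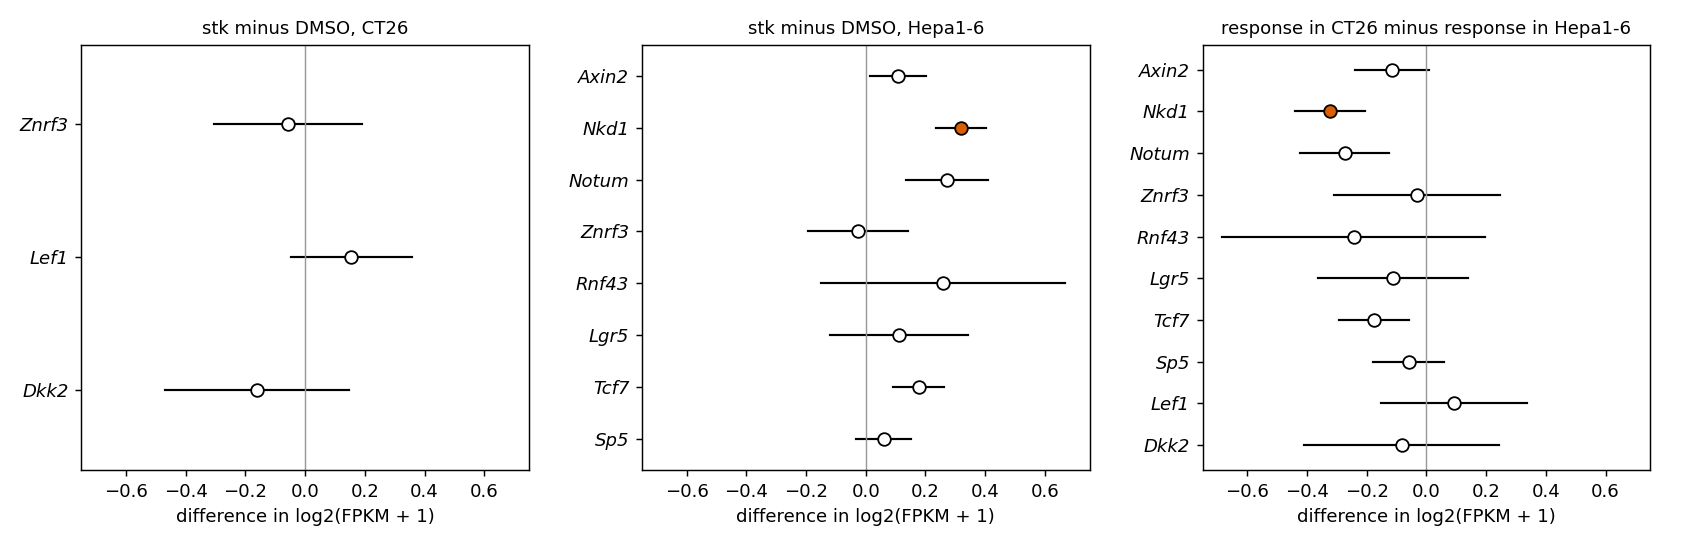
Differences in log2(FPKM + 1) for stk minus DMSO in CT26 and in Hepa1-6, and the response in CT26 minus that in Hepa1-6 (horizontal axes), for the members tested in each model, with 95% intervals as lines. Filled points passed an adjusted p of 0.05. Nkd1 alone is filled, at 0.32 in Hepa1-6 and at -0.32 for the difference between lines, where it was at or near 0 in CT26.

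Among the other pathway genes, 1 of 56 tested was called in CT26 with stk, against 0.748% of all tested genes. With stk in Hepa1-6, 2 of 60 were called, against 1.53%, and all of these calls were higher. In CT26 the called gene was Glul, the glutamine synthetase of pericentral hepatocytes, with 28.3 ± 1.16 FPKM with stk and 22.4 ± 0.85 FPKM with DMSO (SD, n = 3 each; 0.32, SE 0.0474, limma adjusted p = 0.0448). In Hepa1-6 they were Ctnnb1, the beta-catenin gene, with 125.5 ± 2.58 FPKM with stk and 104.5 ± 1.33 FPKM with DMSO (0.26, SE 0.0306, limma adjusted p = 0.0306), and Dact2, which encodes a Dishevelled-binding inhibitor, with 3.88 ± 0.122 and 2.80 ± 0.116 FPKM with stk and with DMSO (0.36, SE 0.0579, limma adjusted p = 0.0452). Without 1 library the Glul call was lost in 5 of 6 fits, all but that without stk replicate 3 (adjusted p 0.0476 to 0.161), and those of Ctnnb1 (0.0576 to 0.123) and Dact2 (0.0814 to 0.134) in all 6. With no filter on low values none of the 3 genes was called (adjusted p 0.12 for Glul, 0.0801 for Ctnnb1 and 0.11 for Dact2), and with a length trend removed Glul (0.0556) and Dact2 (0.0507) were not. With the replicate number as a block, none of the 3 was called (adjusted p 0.107 for Glul, 0.128 for Ctnnb1 and 0.128 for Dact2). No gene of the 8 lists was called for the difference between the lines (0 of 71).

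The hairpins against Soat1 in CT26 were each set against shLucif, and the 3 comparisons share those control libraries. Dkk2 rose with every hairpin and Lef1 rose with every hairpin. Dkk2 had 12.2, 10.8 and 11.2 FPKM with sh1, 10.7, 12.0 and 11.8 FPKM with sh2 and 18.3, 15.8 and 14.5 FPKM with sh3, against 3.58, 3.53 and 3.71 FPKM with shLucif. All 9 hairpin libraries lay above all control libraries, with means 3.17, 3.19 and 4.50 times that of shLucif for sh1, sh2 and sh3. The differences were 1.43 with sh1 (SE 0.0779, limma adjusted p = 3.49e-07), 1.44 with sh2 (2.37e-07) and 1.90 with sh3 (2.49e-08), and 1.59 (SE 0.0636, 3.82e-08) for the mean of the hairpins. Of the 3 genes tested in CT26, 2 were called higher and 1 lower with sh1, 2 and 1 with sh2, and 2 and 0 with sh3. The background was 37.8% of 11832 tested genes with sh1 (19.1% higher and 18.7% lower), 38.9% with sh2 (18.9% higher and 20% lower), 52.5% with sh3 (30.9% higher and 21.6% lower) and 43.1% for the mean of the hairpins (23.4% higher and 19.8% lower).

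Lef1 had 2.43, 2.08 and 1.91 FPKM with sh1, 1.85, 2.12 and 2.18 FPKM with sh2 and 1.80, 1.59 and 1.64 FPKM with sh3, against 1.06, 1.10 and 1.24 FPKM with shLucif. No hairpin library overlapped the controls, and the means were 1.89, 1.81 and 1.48 times that of shLucif for sh1, sh2 and sh3. The differences were 0.55 with sh1 (SE 0.0768, limma adjusted p = 0.000221), 0.51 with sh2 (0.000362) and 0.33 with sh3 (0.00398). These calls of Dkk2 and Lef1 held in every alternative run for these comparisons.

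Znrf3 was lower with sh1 and sh2 by a small amount that depended on the fit. It had 1.59, 1.65 and 1.79 FPKM with sh1, 1.69, 1.76 and 1.45 FPKM with sh2 and 2.05, 2.05 and 1.80 FPKM with sh3, against 1.90, 2.24 and 2.04 FPKM with shLucif. The sh1 and sh2 libraries lay below the controls and the sh3 libraries overlapped them. Its difference was -0.19 with sh1 (SE 0.0699, limma adjusted p = 0.0495), -0.22 with sh2 (0.0292) and -0.05 with sh3 (0.594), and -0.15 for the mean of the hairpins, which was not called, though it was after quantile normalization (0.0207) and with a length trend removed (0.0269). Leaving out 1 library ended the call in 8 of 12 fits for sh1 (without shLucif replicate 2 or 3, or either of 2 libraries of sh1, of sh2 or of sh3, adjusted p up to 0.163) and in 3 of 12 for sh2 (without shLucif replicate 2, shLucif replicate 3 or sh2 replicate 3, adjusted p 0.106, 0.0633 and 0.106). The sh1 call also ended with a pseudocount of 0.1 (0.0528), with no filter on low values (0.116) and in 1 model over all knockdown libraries (0.0758), and the sh2 call with no filter (0.0742).

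The remaining 7 genes were not tested in the CT26 knockdown libraries, where Notum and Sp5 were listed at 0 throughout and Lgr5 in all but 1 sh1 library. Axin2 was listed at 0 in all 3 sh1 libraries and had 0.0216, 0.00914 and 0.00928 FPKM with sh2, 0.0205, 0.101 and 0.0268 FPKM with sh3, and 0.0104, 0.0105 and 0.0112 FPKM with shLucif. Nkd1 had at most 0.0223 FPKM, Rnf43 at most 0.0524 FPKM and Tcf7 at most 0.019 FPKM.

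**Figure D3:**
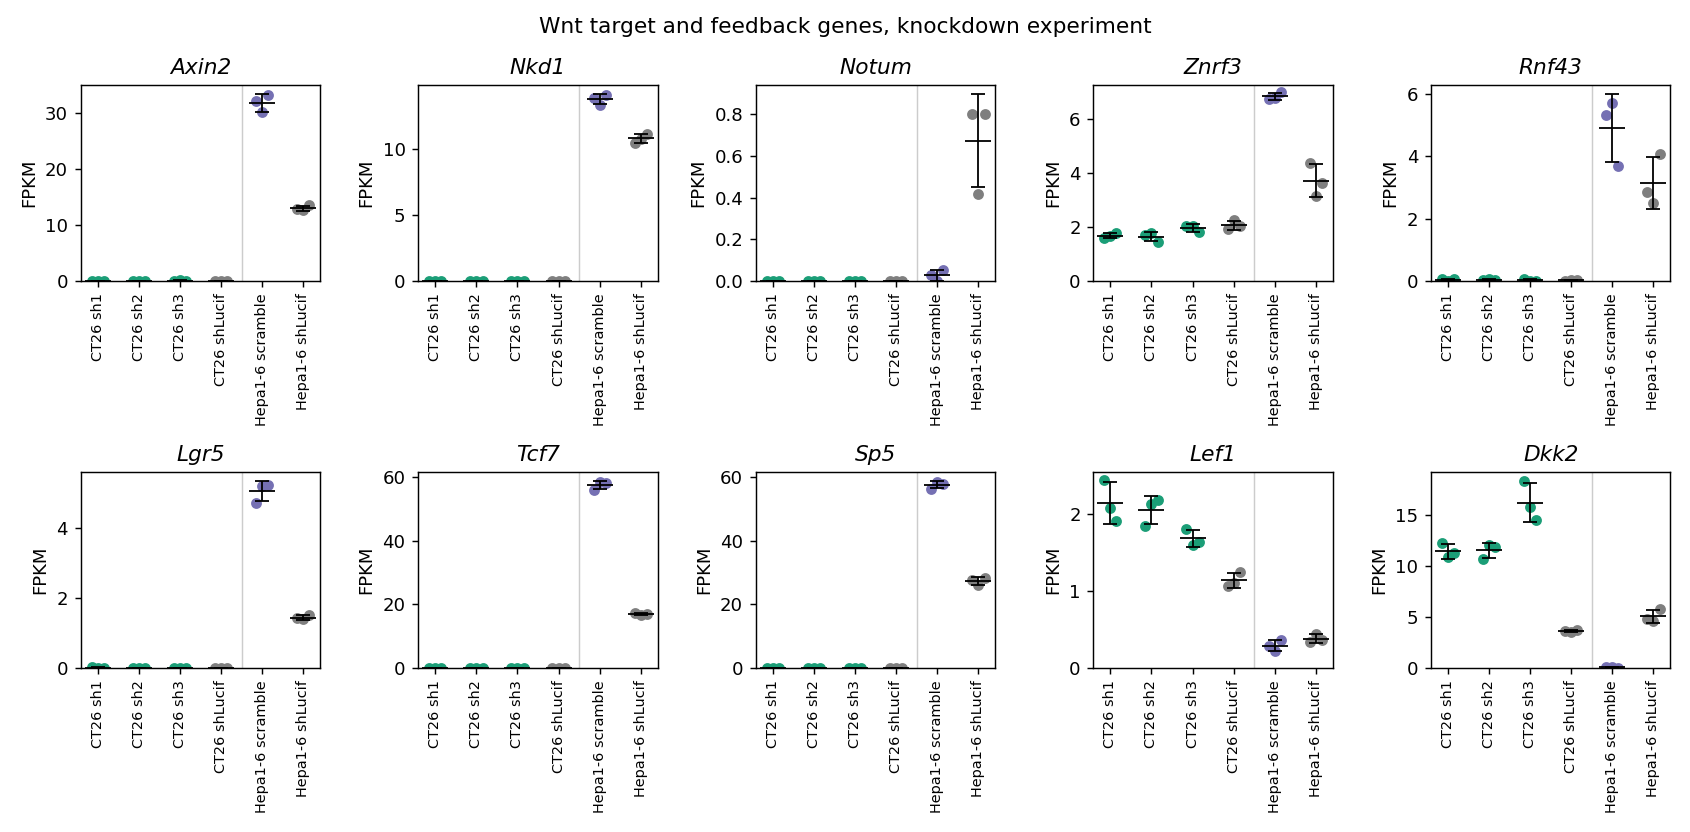
FPKM of the 10 genes in the knockdown experiment (vertical axis, a separate linear scale per gene), with 1 point per library and the mean ± SD in black, for CT26 with sh1, sh2, sh3 and shLucif and Hepa1-6 with scramble and shLucif. Dkk2 is at 10.7 to 18.3 FPKM in the CT26 hairpin libraries and 3.53 to 3.71 FPKM in CT26 shLucif, and Notum and Dkk2 are higher in the libraries labelled Hepa1-6 shLucif than in Hepa1-6 scramble.

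The hairpins differed from each other in all 3 tested genes, when sh3 was set against the mean of sh1 and sh2. Dkk2 was higher with sh3 (0.46, SE 0.0675, limma adjusted p = 0.00013), Lef1 was lower (-0.21, SE 0.0665, 0.0195) and Znrf3 was higher (0.16, SE 0.0605, 0.0417), against a background of 60.2% of genes called (35.5% higher and 24.7% lower). Soat1 was also lower with sh3 than with the other hairpins (-0.28, SE 0.0358, limma adjusted p = 4.12e-05), and the mesenchymal markers summed to 554.4 to 649.3 FPKM with sh3, 353.7 to 364.8 FPKM with sh1, 335.6 to 354 FPKM with sh2 and 366.5 to 378.4 FPKM with shLucif. Intestinal epithelial markers summed to 44.9 to 49.4 FPKM with sh3 and 25.1 to 25.5 FPKM with shLucif. The part of these markers in the differences was not tested. The Lef1 difference lost its call without sh3 replicate 2 (adjusted p = 0.078) or sh3 replicate 3 (0.062). The Znrf3 difference was lost in 7 of 12 fits that left out 1 library (shLucif replicate 3 or either of 2 libraries of sh1, of sh2 or of sh3) and after quantile normalization (0.06, adjusted p = 0.392), with a length trend removed (0.175), with no filter on low values (0.0916) and in 1 model over all knockdown libraries (0.066).

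**Figure D4:**
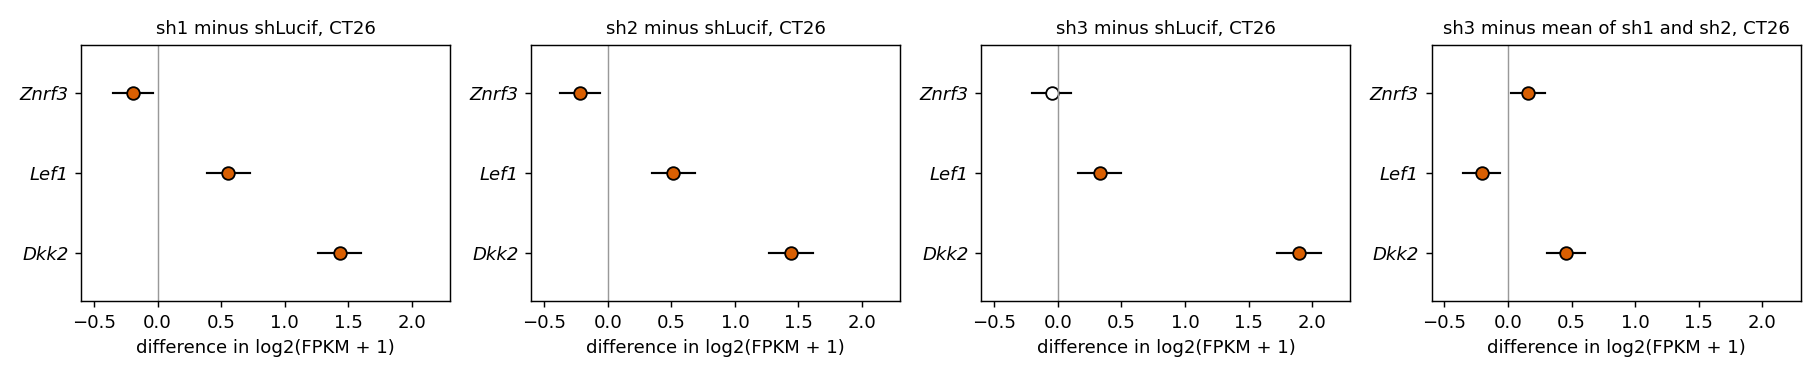
Differences in log2(FPKM + 1) (horizontal axis) of Znrf3, Lef1 and Dkk2 in CT26 for each Soat1 hairpin minus shLucif, and for sh3 minus the mean of sh1 and sh2, with 95% intervals as lines and filled points for an adjusted p under 0.05. Dkk2 lies at 1.43, 1.44 and 1.90 for sh1, sh2 and sh3, and Znrf3 with sh3 is the only open point.

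Over the 12 CT26 knockdown libraries, the genes with the pattern most like Dkk2 by Pearson r of log2(FPKM + 1) were 2310022B05Rik (0.993), Cd109 (0.992) and Lrrk2 (0.99). Those most like Lef1 were Ago1 (0.976), Lacc1 (0.971) and Swap70 (0.971), and those most like Znrf3 were AC124577.3 (0.931), Topors (0.921) and Zfp980 (0.92). These values are descriptions over 4 groups of 3 libraries that share the same treatment steps.

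Of the 124 other pathway genes, 58 were tested in CT26 with the hairpins. For sh1, 11 were higher and 9 lower, for sh2 9 and 10, for sh3 27 and 14, and for the mean of the hairpins 19 and 11. Over all tested genes, 19.1% were higher and 18.7% lower with sh1, and 18.9% and 20% with sh2. The shares were 30.9% and 21.6% with sh3, and 23.4% and 19.8% for the mean of the hairpins. The ligand gene Wnt10a was higher with the mean of the hairpins (0.79), at 15.2 ± 3.04 FPKM with sh1, 12.8 ± 0.604 FPKM with sh2 and 17.9 ± 1.08 FPKM with sh3, against 8.35 ± 0.899 FPKM with shLucif (SD, n = 3 each). The receptor gene Fzd7 was higher too (0.64), at 5.16 ± 0.311, 5.63 ± 0.384 and 8.41 ± 0.827 FPKM with sh1, sh2 and sh3, against 3.68 ± 0.422 FPKM with shLucif. Of 9 tested crypt and general targets, 4 were higher and 3 lower for the mean, among them the adhesion receptor Cd44 (0.43) and Sox9 (-0.24). The Sox9 call came from sh3 (4.19 ± 0.391 FPKM, against 9.55 ± 0.543 FPKM with shLucif; -1.02, limma adjusted p = 1.03e-05), since Sox9 had 11.1 ± 1.81 FPKM with sh1 and 10.4 ± 0.779 FPKM with sh2. All 3 tested pericentral genes were higher for the mean, Glul by 0.37, Slc1a4 by 0.20 and Oat by 0.17, although Slc1a4 was lower with sh3 taken alone (-0.16, limma adjusted p = 0.0298). No hairpin taken alone raised all 3, with 2 called higher for each of sh1, sh2 and sh3. Oat averaged 34.1 ± 0.945 FPKM with sh1, 36.1 ± 1.91 FPKM with sh2 and 46.0 ± 1.84 FPKM with sh3, against 34.0 ± 0.104 FPKM with shLucif. The destruction-complex kinase Gsk3b was higher as well (0.71, SE 0.235), with libraries that ranged from 3.19 to 8.62 FPKM over the hairpins and from 2.85 to 3.02 FPKM with shLucif.

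In Hepa1-6 the scramble hairpin was set against shLucif, a comparison of 2 control hairpins. Of 8 tested genes, 7 were higher with scramble and 1, Dkk2, was lower. Dkk2 reached 1 FPKM with shLucif only and was tested through that group, so its direction describes it and supports nothing further. The background was 68.2% of 12055 genes called (31.4% higher and 36.8% lower), and 73.2% had libraries that did not overlap. The libraries labelled Hepa1-6 shLucif are those whose hepatocyte, intestinal and mesenchymal marker sums and Soat1 departed from those with scramble. The part of those markers in the values that follow was not tested.

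Tcf7 had 56.1, 58.5 and 58.1 FPKM with scramble and 17.1, 16.5 and 17.0 FPKM with shLucif (1.71, SE 0.035, limma adjusted p = 7.05e-08). Lgr5 had 4.71, 5.20 and 5.24 FPKM with scramble and 1.41, 1.38 and 1.503 FPKM with shLucif (1.31, SE 0.0608, limma adjusted p = 2.69e-06). These were the largest ratios of the genes higher with scramble, at 3.42 and 3.52 times the shLucif mean. Axin2 had 32.2, 30.1 and 33.1 FPKM with scramble and 12.8, 12.7 and 13.5 FPKM with shLucif (1.23, limma adjusted p = 1.3e-06), a ratio of 2.44. Sp5 had 56.4, 58.6 and 57.9 FPKM with scramble and 27.5, 26.0 and 28.3 FPKM with shLucif (1.05, limma adjusted p = 1.21e-06), a ratio of 2.11. The libraries of the groups were apart in these 4 genes.

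Znrf3 had 6.74, 6.77 and 6.98 FPKM with scramble and 4.37, 3.14 and 3.63 FPKM with shLucif (0.74, limma adjusted p = 0.000452). Nkd1 had 13.9, 13.4 and 14.2 FPKM with scramble and 10.5, 10.8 and 11.2 FPKM with shLucif (0.33, limma adjusted p = 0.000531) and a ratio of 1.28, the smallest among the 7 genes called higher. Rnf43 had 5.34, 5.71 and 3.67 FPKM with scramble and 2.84, 2.51 and 4.07 FPKM with shLucif (0.51, SE 0.182, limma adjusted p = 0.0411). Its groups overlapped, and the call was lost in 4 of 6 fits that left out 1 library (without shLucif replicate 1 or 2 or scramble replicate 1 or 2, adjusted p 0.109 to 0.119) and with no filter (0.103).

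Dkk2 and Notum went the other way. Dkk2 had 0.0277, 0.0602 and 0 FPKM with scramble and 4.76, 4.59 and 5.74 FPKM with shLucif (-2.55, SE 0.084, limma adjusted p = 5.53e-07). In CT26 shLucif it had 3.53 to 3.71 FPKM. Notum had 0.0279, 0 and 0.0526 FPKM with scramble and 0.801, 0.417 and 0.804 FPKM with shLucif, below the minimum for testing. Where genes of any level were tested, Notum was lower with scramble (-0.70, SE 0.104, limma adjusted p = 0.00341). Lef1, also under the minimum, had 0.275, 0.217 and 0.364 FPKM with scramble and 0.333, 0.436 and 0.364 FPKM with shLucif.

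**Figure D5:**
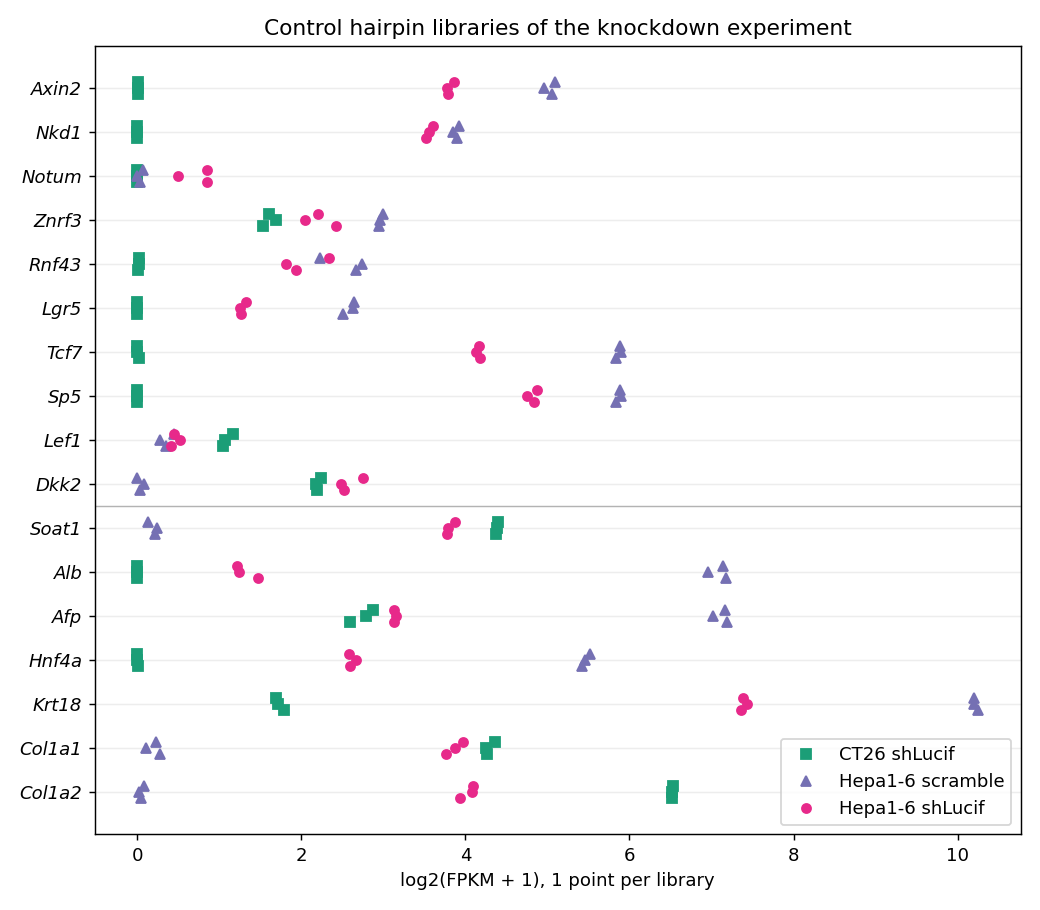
Levels as log2(FPKM + 1) (horizontal axis, 1 point per library) of the 10 genes, of Soat1 and of 6 marker genes in CT26 shLucif, Hepa1-6 scramble and Hepa1-6 shLucif. In most rows the libraries labelled Hepa1-6 shLucif lie between the other groups, as for Tcf7 (16.8 FPKM, against 57.6 FPKM with scramble) and Col1a2 (15.4 FPKM, against 90.8 FPKM in CT26 shLucif), whereas Dkk2 and Notum are highest in them.

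The lines were also compared with shLucif. CT26 was lower in 8 of 9 tested genes and higher in Lef1 (0.63, limma adjusted p = 0.000104), against a background of 72.8% of 11906 genes called (33.7% higher and 39% lower). Of the tested genes, only Znrf3 and Dkk2 reached 1 FPKM in both groups. The others passed the minimum for testing through 1 group only, so their directions describe them and support nothing further. Axin2, Nkd1, Rnf43, Lgr5, Tcf7, Sp5 and Znrf3 were lower in CT26, as they were with DMSO, with Znrf3 at 2.06 ± 0.171 FPKM in CT26 and 3.71 ± 0.621 FPKM in the libraries labelled Hepa1-6 shLucif (SD, n = 3 each; -0.62, limma adjusted p = 0.0015). Dkk2 was lower in CT26 (-0.38, SE 0.0805, limma adjusted p = 0.00427), unlike with DMSO. With Hepa1-6 scramble in place of shLucif, an alternative added after the data had been seen, Dkk2 was higher in CT26 by 2.16 (limma adjusted p = 3.47e-08).

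Among the other pathway genes, 31 were higher and 24 lower with scramble than with shLucif in Hepa1-6, of 69 tested. Over all tested genes in this comparison, 68.2% were called (31.4% higher and 36.8% lower). These values rest on the libraries labelled Hepa1-6 shLucif, whose marker sums and Soat1 departed from those with scramble. Among the genes given below, Fzd10, Wnt6, Fzd2 and Slc1a2 reached 1 FPKM in 1 group only. They were tested through that group, so their directions describe them and support nothing further. The receptor gene Fzd10 was at 29.7 ± 2.19 FPKM with scramble and 0.0182 ± 0.0191 FPKM with shLucif (4.91), and Wnt6 at 22.0 ± 1.43 FPKM with scramble and 0.345 ± 0.0699 FPKM with shLucif (4.10; SD, n = 3 each). Fzd2 was listed at 0 with scramble and had 6.03 ± 0.447 FPKM with shLucif, and it had 2.85 ± 0.185 FPKM in CT26 shLucif. Jag1 was higher with scramble (2.88). Of 7 tested pericentral genes, 5 were higher with scramble, among them Lect2 (3.29) and Cyp27a1 (1.08), and 2 were lower, among them the glutamate transporter gene Slc1a2 (-1.45; 0.327 ± 0.041 FPKM with scramble and 2.64 ± 0.192 FPKM with shLucif). Of 6 tested antagonist and inhibitor genes, 2 were higher with scramble, Dact2 (1.68) and Cxxc5 (1.40), and 4 were lower, among them Tpbg (-2.23).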

How the data were processed

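FPKM values of 55335 genes were deposited by the authors as 1 table for each of 2 experiments. Per the labels' protocols, total RNA was extracted with TRIzol, sequenced as paired ends and trimmed with Skewer, with the SMARTer kit used for certain samples that are not named. Per the submitters' processing notes, the build was GRCm38 and the tools included HISAT2, STAR, DESeq2 and edgeR, with versions and the maker of the FPKM not given in the sources used here. Read depth is unknown, since low values gave no common step (at most 10.7% of low genes shared 1 ratio between libraries). The table names are swapped between experiments, so columns were matched to the labels by their own names. Of 45 labelled samples 30 had a matching column, and 21 columns that match no label were not used.

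Differences of log2(FPKM + 1) were tested two-sided in limma (version 3.58.1, R version 4.3.3) with its trend option, and p-values were adjusted by Benjamini-Hochberg over all genes that reached 1 FPKM in 3 or more libraries fitted. Lines and experiments were fitted apart, except for the comparisons between lines. With 3 libraries against 3 an exact permutation test cannot go below p = 0.1, so none was run. The model was tested on simulated data. No 2 libraries held identical values. The named genes are the 10 members, Soat1 as the targeted gene, at most 3 called genes of each of the 8 lists with the largest differences, and the 3 genes most like each tested member. Marker genes, and the genes given as not called or set beside a member (Wnt10a, Axin1, Tcf7l1, Tcf7l2), were chosen with their values known. The members and the lists were chosen with earlier results of these data known. Alternatives were another pseudocount, no filter on low values, quantile normalization, removal of a trend with transcript length, 1 model per table, the replicate number as a block and leaving out each library.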

Additional observations from a re-analysis of the deposited data

Results flagged for a closer look

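The interaction term between line and stk passed the threshold for Nkd1, at -0.32 for CT26 minus Hepa1-6 on the log2(FPKM + 1) scale. This value repeats the difference in Hepa1-6 (0.32) with the sign turned, since Nkd1 was at or near 0 in CT26, so it does not show a difference in response. The call was lost in all 12 fits that left out 1 library and with a pseudocount of 0.1. Nkd1 had 28.8, 28.2 and 28.1 FPKM with stk and 23.0, 22.3 and 22.2 FPKM with DMSO in Hepa1-6, and at most 0.00655 FPKM in any CT26 library of the drug experiment.

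Hairpin sh3 differed from the mean of sh1 and sh2 in CT26 in all 3 tested genes, by 0.46 for Dkk2, -0.21 for Lef1 and 0.16 for Znrf3. The Znrf3 call was lost in 7 of 12 fits that left out 1 library, and the Lef1 call in 2 of 12. Znrf3 also lost its call after quantile normalization, with a length trend removed, with no filter and in 1 model over all knockdown libraries. At the same contrast 60.2% of all tested genes passed the threshold.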

How the results depend on the processing

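With DMSO, CT26 and Hepa1-6 differed in all 10 genes under every alternative run. For stk in Hepa1-6, 1 of the 10 genes was called, against 0 with no filter on low values, 2 after quantile normalization, 3 with 1 model over the whole table, 0 with the replicate block and 0 in each fit without 1 library. For the difference in response between the lines the count was 1, against 0 with a pseudocount of 0.1, 0 with the replicate block and 0 in each fit without 1 library. Without 1 library the count was 1 to 3 where sh3 was set against sh1 and sh2, 6 to 8 for scramble against shLucif, and 3 to 8 for CT26 against Hepa1-6 with shLucif. It was 3 without any 1 of the libraries labelled Hepa1-6 shLucif, where genes read only in them could not reach 3 libraries and were not tested. The interaction reversed for Dkk2 with a pseudocount of 0.1 (0.37) and for Znrf3 after quantile normalization (0.0145), and the Dkk2 difference between lines with shLucif reversed with scramble in place (2.16). Without 1 library, differences that had not been called also changed sign for Znrf3 with stk in CT26 (-0.134 to 0.00252), in Hepa1-6 (-0.0917 to 0.0285) and for the interaction (-0.108 to 0.0333), and for Dkk2 for the interaction (-0.169 to 0.0541). The cause was not tested. Same-numbered libraries had correlations of their deviations from -0.08 to 0.1. Depending on the groups, 0 to 4 of 6 libraries correlated best with their own number. With so few libraries these values cannot decide whether same-numbered libraries were paired. With the replicate block, Nkd1 lost its call for stk in Hepa1-6 (adjusted p = 0.128) and for the interaction (0.119), and Rnf43 for scramble (0.0952). The block could not hold sh1, whose columns carry no label number. Over all genes, stk called 85 genes in CT26 and 175 in Hepa1-6, against 14 and 4 with no filter, 106 and 260 after quantile normalization, 204 and 928 in 1 model and 4 and 4 with the block, and 74 in Hepa1-6 with a length trend removed. The difference in response called 39 genes, and 11 with the block. In CT26, 17.6% of calls with stk were higher, against 30.2% after quantile normalization and 37.7% with a length trend removed. For sh3 against shLucif, 58.8% of calls over all genes were higher, against 49.5% after quantile normalization and 48.9% with a length trend removed. The balance of higher and lower calls with sh3 therefore depends on the normalization. Differences below 1 FPKM are limited by an unknown depth.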

Other observations

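Levels of the untreated or control Hepa1-6 groups also differed between the experiments, which were normalised separately and carry different batch dates, so these values are set side by side with no test. Notum had 0.0279, 0 and 0.0526 FPKM with the scramble hairpin, and 3.495, 3.45 and 3.41 FPKM with DMSO. Nkd1 averaged 13.8 ± 0.374 FPKM with scramble and 22.5 ± 0.432 FPKM with DMSO, and Axin2 31.8 ± 1.55 FPKM with scramble and 51.9 ± 1.56 FPKM with DMSO (SD, n = 3 each). Tcf7 (57.6 ± 1.26 and 62.4 ± 1.23 FPKM), Sp5 (57.6 ± 1.15 and 66.4 ± 2.42 FPKM) and Lgr5 (5.05 ± 0.293 and 5.37 ± 0.259 FPKM) lay closer together in scramble and DMSO cells. In CT26, Dkk2 averaged 3.60 ± 0.094 FPKM with shLucif and 4.98 ± 0.473 FPKM with DMSO, and Sox9 9.55 ± 0.543 FPKM with shLucif and 0.888 ± 0.109 FPKM with DMSO.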
